A study of Mus musculus with 4 samples.

Results

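Nnt and P2rx7 were chosen by their transcript levels in these libraries, since both were higher in the libraries labelled Tut1 KO and double KO than in the control and Trp53 KO libraries. Both genes are known to vary between laboratory mouse strains. The 2 symbols matched 3 of the 55487 Ensembl gene IDs measured, because Nnt was listed under 2 IDs. Levels were given in TPM, a share of all transcripts that accounts for transcript length, and came from 4 libraries of primary mouse neural cells, cultured neural stem cells by the study's methods, with 1 library per group. The control was Tut1f/f cells given empty LNP (lipid nanoparticles), and the Tut1 KO library was Tut1f/f cells given Cre-LNP, which carry mRNA for the recombinase Cre. The Trp53 KO library was p53f/f cells and the double KO library Tut1f/f;p53f/f cells, both given Cre-LNP. Every group thus carried at least 1 floxed gene, and the control differed from the other 3 groups in its particle as well. Levels in all libraries are given below in the order control, Trp53 KO, Tut1 KO and double KO. The methods of the study describe cultures from the neocortex of floxed embryos, with loxP sites around an exon of Tut1. They name the floxed Trp53 mice as a B6.129P2 line, while a figure legend of the study describes floxed Trp53 mice made by genome editing. The methods give no strain for the Tut1f/f mice, which were made by genome editing. How many embryos entered each culture and whether cultures came from littermates was not given in the sources used here. Tut1 label, culture and strain background therefore cannot be told apart in these libraries, and with no replicates no difference below was tested or set against a spread between cultures.

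Nnt encodes nicotinamide nucleotide transhydrogenase, an enzyme of the inner mitochondrial membrane that uses the proton gradient to make NADPH from NADH, and so feeds the glutathione and thioredoxin systems that remove peroxides. The strain C57BL/6J is known for a deletion of several exons of Nnt that other strains do not have. P2rx7 encodes the P2X7 receptor, a cation channel opened by high extracellular ATP. It is best known in microglia and macrophages, where its opening leads to activation of the NLRP3 inflammasome, and it is also found in neural progenitors and glia. Common strains differ in a coding variant of P2rx7 that alters how well the channel works. TPM per gene does not show alleles, so which allele a culture carried was not tested.

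P2rx7 has 2 annotated promoters, and their sequences are shown because each P2rx7 level below is summed over the gene, so that transcripts from either start could contribute. Each window holds 250 bases before and 50 bases after an annotated start. The upstream window lay at chr5:122643677-122643976 and the downstream window at chr5:122650133-122650432, both on the plus strand (RefSeq, GRCm38.p6). Capitals mark matches, on either strand, to 6 short motifs that were searched.
P2rx7 upstream promoter: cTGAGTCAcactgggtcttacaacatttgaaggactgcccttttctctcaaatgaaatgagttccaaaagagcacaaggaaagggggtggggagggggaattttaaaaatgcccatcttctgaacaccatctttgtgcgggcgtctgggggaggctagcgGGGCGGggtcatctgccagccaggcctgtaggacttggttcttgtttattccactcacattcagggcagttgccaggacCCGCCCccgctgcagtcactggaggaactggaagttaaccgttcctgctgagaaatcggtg
P2rx7 downstream promoter: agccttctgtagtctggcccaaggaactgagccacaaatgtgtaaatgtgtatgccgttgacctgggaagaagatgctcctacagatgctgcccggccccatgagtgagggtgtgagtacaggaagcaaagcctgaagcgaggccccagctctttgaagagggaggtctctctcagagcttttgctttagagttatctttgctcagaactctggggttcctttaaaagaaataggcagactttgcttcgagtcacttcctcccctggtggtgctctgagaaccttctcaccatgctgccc
The upstream window held 1 match to the AP-1 motif TGAGTCA, which 5.20% of 32851 mouse promoter windows of the same length hold. It also held 2 matches to the GC box GGGCGG, a motif that 35.7% of windows hold at least once. The downstream window held no match to these, nor to the TATA box (TATAAA, in 13.6% of windows), the CCAAT box (37.4%), the E-box CACGTG (7.15%) or the cAMP response element TGACGTCA (1.79%). Such matches describe letters only, and use of either start was not measured. No promoter sequence of Nnt was used here.

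The targeted genes were compared with the labels. Trp53 was at 119.9 and 100.4 TPM in control and Tut1 KO and at 39.7 and 41.9 TPM in Trp53 KO and double KO, and so followed its label. Tut1 went against its label. It was measured at 12.2, 12.5, 29.8 and 13.7 TPM, so the library labelled Tut1 KO was the highest and the one labelled double KO was not below the Trp53 KO. A level summed over the gene does not resolve the floxed exon, so the deletion was not tested here. The study assessed it with other assays in cells of this kind, which are not used here, and directions given below for the Tut1 KO label rest on that label. The libraries also differed in a second way. Xist, the RNA that silences an X chromosome, was at 204.0 and 188.1 TPM in Trp53 KO and Tut1 KO and at most at 0.00969 TPM in control and double KO, and the Y-linked genes Ddx3y and Eif2s3y were at 0 in the first pair and at 24.4 to 62.0 TPM in the second. Each Tut1 comparison thus sets a library with Xist against one without it, in opposite order. Nnt and P2rx7 were higher in the Tut1 KO, with Xist, and in the double KO, without it.

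P2rx7 was measured at 6.88 TPM in the control, 5.47 TPM in the Trp53 KO, 35.2 TPM in the Tut1 KO, and 19.4 TPM with both labels (double KO). Both libraries with the Tut1 KO label were above both others, and the Tut1 KO library was the highest. In TPM, P2rx7 was 5.12-fold higher in the Tut1 KO than in the control, and the double KO exceeded the Trp53 KO by 3.56-fold. On the log2(TPM + 1) scale used from here on for all differences, these were differences of 2.20 and 1.66. They are the values by which the gene was chosen, and are given as a description. Within a label the 2 libraries were not equal either: Tut1 KO exceeded double KO by 1.81-fold in TPM, a log2 difference of -0.83 for double KO minus Tut1 KO. Trp53 KO minus control was -0.29. In bulk RNA, a larger share of cells with P2rx7 transcripts and more transcripts per cell cannot be told apart.

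The main Nnt ID (ENSMUSG00000025453) was at 6.32, 7.06, 20.3 and 26.2 TPM in control, Trp53 KO, Tut1 KO and double KO. Here too the Tut1 KO and double KO libraries were above both others, but the double KO was the highest. The level was 3.21-fold higher in the Tut1 KO than in the control, and the double KO exceeded the Trp53 KO by 3.72-fold, which are log2 differences of 1.54 and 1.76. Double KO minus Tut1 KO was 0.35 and Trp53 KO minus control 0.14. As for P2rx7, the gene was chosen by this pattern.

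The second Nnt ID (ENSMUSG00000116207) was listed at 4.57 TPM in the control and at 0 in the other 3 libraries. Its only transcript, of 3339 bases and 17 exons, is contained letter for letter in the 3464 bases of a transcript of the main ID with 17 exons as well. Reads from them therefore cannot be assigned to one ID by sequence over that length. When both IDs were summed, Nnt stood at 10.9 TPM in the control and was unchanged at 7.06, 20.3 and 26.2 TPM in the Trp53 KO, Tut1 KO and double KO libraries. The order of the labels held, but the Tut1 KO level was then 1.86-fold that of the control, a log2 difference of 0.84 that is below the threshold of 1. Trp53 KO minus control became -0.56. How far Nnt exceeded the control in the Tut1 KO library thus depended on whether the second ID was counted, whereas the difference between double KO and Trp53 KO stayed at 1.76.

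**Figure D1:**
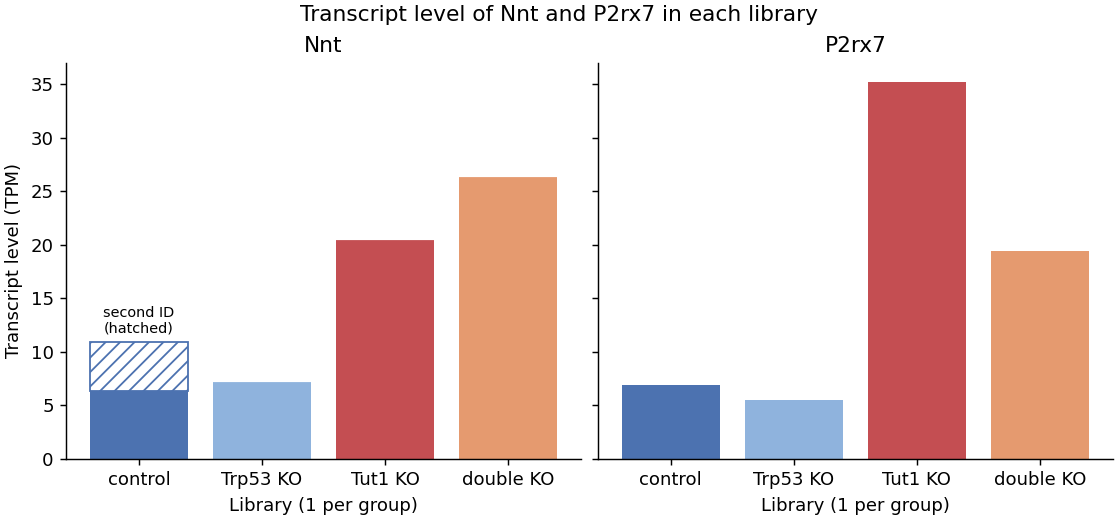
Bars give the TPM of Nnt (left) and P2rx7 (right) in each of the 4 libraries, 1 per group and so without error bars; the hatched part is the second Nnt ID. Nnt was highest in the double KO library at 26.2 TPM and P2rx7 in the Tut1 KO library at 35.2 TPM, and the second Nnt ID was above 0 in the control alone, at 4.57 TPM.

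Both genes are annotated with several transcripts (GENCODE M21, GRCm38). Nnt lies on the minus strand at chr13:119335448-119408997, with 6 transcripts over both IDs, 4 of them coding. The longest coding models, 1 under each ID, hold 835 codons. GRCm38 is an assembly of C57BL/6J, so reads from exons that this strain lacks have no place in these models and could not be counted. P2rx7 lies on the plus strand at chr5:122643911-122691432, with 8 transcripts, 5 of them coding. The longest has 13 exons, 4936 bases and 595 codons, and the shortest coding one has 153 codons. The miRNA gene Mir8115 lies within an exon of P2rx7 at chr5:122682597-122682715 and was listed at 0.215 to 0.245 TPM in the 4 libraries, so adding it to P2rx7 changed the gap by little.

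To place the members among all genes, a gap was computed for each gene, which is the lower of the Tut1 KO and double KO levels minus the higher of the control and Trp53 KO levels on the log2 scale. A gap above 0 means that the labels did not overlap. Of 9314 genes with at least 10 TPM in some library, 14 were higher in both libraries with the Tut1 KO label by a gap of 1 or more (0.150%) and 21 were lower by as much (0.225%). P2rx7 had a gap of 1.38 and ranked 10th, and the main Nnt ID a gap of 1.40 and ranked 9th. With both Nnt IDs summed the gap was 0.84, outside the threshold. Just inside the threshold were Prpf38b (1.04) and Itm2c (1.02), and just outside it Tcf12 (0.99). In single comparisons, 134 of 9032 genes (1.48%) were higher by 1 or more in the Tut1 KO than in the control, where P2rx7 ranked 39th and Nnt 63rd. In double KO against Trp53 KO, 127 of 8976 genes (1.41%) were higher by 1 or more, with Nnt ranked 62nd and P2rx7 70th. The members were chosen from these same values, so their ranks are no evidence about them.

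**Figure D2:**
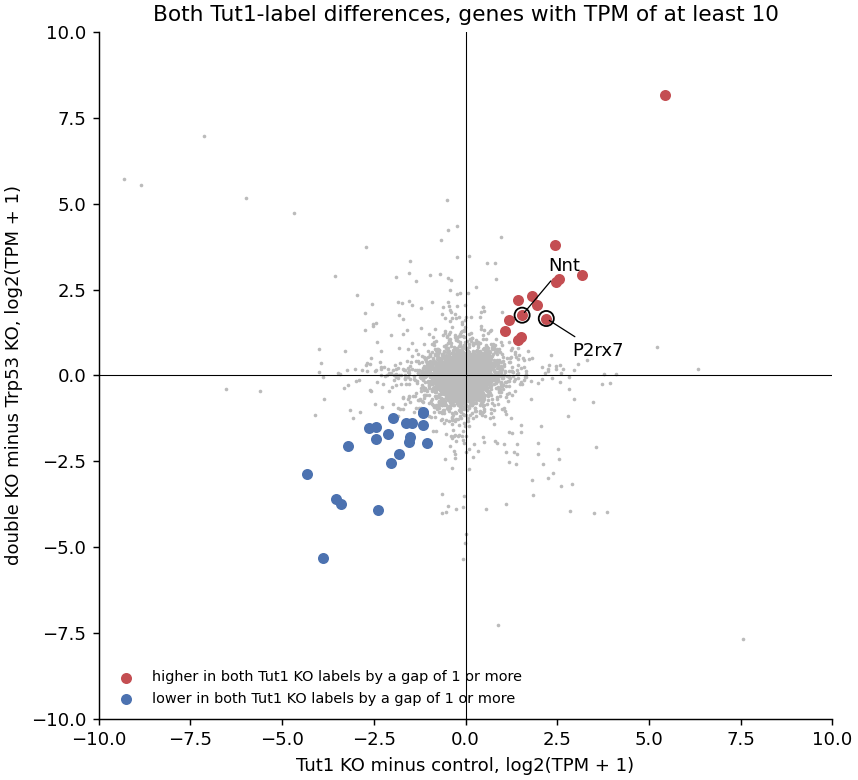
Each point is 1 of 9314 genes with at least 10 TPM in some library, with its log2(TPM + 1) difference between Tut1 KO and control on the x axis and between double KO and Trp53 KO on the y axis. The 14 red and 21 blue points are genes with a gap of 1 or more; P2rx7 lay at 2.20 and 1.66 and the main Nnt ID at 1.54 and 1.76, among genes with larger differences in both.

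The genes with the largest gaps included further pairs of IDs that share exons. The largest was an ID of Septin2, a cytoskeletal GTPase, with a gap of 5.44, while the other Septin2 ID was among the lowest with a gap of 3.44 in the opposite direction. Summed over both IDs, Septin2 was at 242.8 to 308.0 TPM in the 4 libraries, and its gap was -0.15. Of the 14 higher genes, 6 shared exons with another ID on the same strand, and 3 of these 6 were still past the threshold once the IDs were summed; P2rx7 was among those that were, with a gap of 1.35 after adding Mir8115, and Nnt was not. The other genes named here from the higher side were Ctdsp2, a small C-terminal domain phosphatase (8.92, 8.21, 53.9 and 59.8 TPM), Samd8, Larp1b, Zfp60, Ednrb, Kidins220 and Slc35e2. On the lower side they were Elovl2, an elongase of very long fatty acids (27.7, 23.4, 0.434 and 2.37 TPM), Adgrl1, Wdfy1, Rbm38, Utrn, Chmp3, Aak1, Ube2f and Pds5a.

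**Figure D3:**
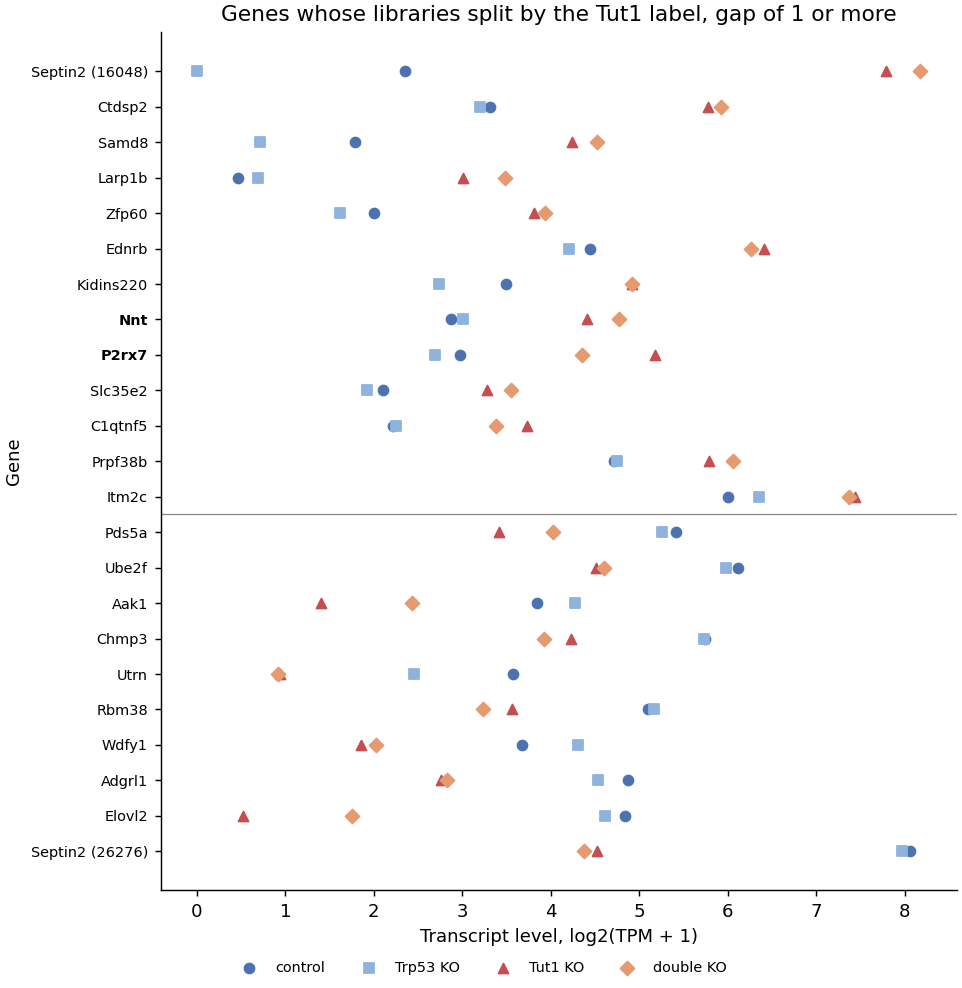
Points give the level of each named gene in the 4 libraries as log2(TPM + 1), with genes higher in both libraries with the Tut1 KO label above the line and the 10 lower genes with the largest gap below it; the numbers beside Septin2 are the ends of its 2 IDs. In each gene the libraries with the Tut1 KO label lie on 1 side of the control and Trp53 KO, and Nnt and P2rx7 (bold) are at intermediate levels.

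The profiles of the members over the 4 libraries were not the closest to each other. After each gene was centred on its own mean, the root mean square distance between the main Nnt ID and P2rx7 was 0.465 on the log2 scale. P2rx7 was the 29th nearest gene to this ID, which was the 7th nearest to P2rx7. Nearest to the main Nnt ID were Slc35e2 (0.171), Tcf12 (0.199), Prpf38b (0.235), Itm2c (0.267) and Ednrb (0.285). This order depended on the ID. With both Nnt IDs summed, the distance to P2rx7 was 0.532 and P2rx7 ranked 333rd, Ednrb moved to rank 62 and Itm2c to rank 28, while Slc35e2 was still the nearest and Tcf12 and Prpf38b were 5th and 7th. Tcf12, an E-protein transcription factor, was at 34.3, 30.8, 69.0 and 112.7 TPM, so it shared with Nnt a maximum in the double KO. Nearest to P2rx7 were Ednrb (0.243), Zfp60 (0.343), Kidins220 (0.343), C1qtnf5 (0.367) and, after 1 gene that is not named, Comtd1 (0.422). Ednrb, the endothelin receptor type B, was at 20.8, 17.4, 83.7 and 75.6 TPM, and it was the 1 gene among the 5 named for P2rx7 and the 5 for the main Nnt ID alike. Kidins220, a neuronal scaffold protein that binds growth factor receptors, was at 10.2, 5.66, 29.2 and 29.3 TPM. These distances rest on 4 libraries, which all genes share.

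Genes next to the members on the chromosome did not show their pattern at the same size. Among genes with at least 1 TPM in some library, 25 lay within 5 Mb of Nnt, and in 5 of these (20.0%) both libraries with the Tut1 KO label were above both others. Over all 15095 such genes this share was 15.0%, and 17.9% had them below both others, against 7 of 25 (28.0%) near Nnt. No gene near Nnt reached a gap of 1 in either direction. The nearest measured gene at higher coordinates than Nnt, Paip1, which binds the poly(A)-binding protein, was at 98.8, 92.4, 67.1 and 117.9 TPM, so the Tut1 KO was the lowest. Tmem267, the next gene named, beyond 3 measured genes that are only counted, was at 27.7, 18.2, 3.78 and 13.1 TPM. Its Tut1 KO level differed from the control by -2.59, opposite in sign to Nnt, while the double KO differed from the Trp53 KO by -0.44. Hmgcs1, an enzyme of cholesterol synthesis, was at 461.6 to 835.7 TPM with its minimum in the Tut1 KO too. Mrps30, the nearest measured gene at lower coordinates and a mitochondrial ribosomal protein gene, stayed between 27.9 and 31.8 TPM. The other 6 neighbours (Emb, Parp8, Pelo, Itga1, Nim1k and Zfp131) had differences between -0.87 and 0.44.

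Within 5 Mb of P2rx7 there were 109 genes, of which 18 (16.5%) had both libraries with the Tut1 KO label above and 18 (16.5%) below both others, beside 15.0% and 17.9% over all genes. Within 1 Mb the share above was 6.82%. None had a gap of 1 or more in either direction. P2rx4, the nearest measured gene at higher coordinates and a paralog, encodes another ATP-gated channel and was at 4.63, 3.97, 3.03 and 5.31 TPM. The lowest P2rx4 value was in the library where P2rx7 was highest. Ift81, the nearest at lower coordinates, was at 11.2 to 15.0 TPM, with differences of -0.39 and -0.13. The other 8 neighbours (Atp2a2, Anapc7, Arpc3, Gpn3, Camkk2, Anapc5, Rnf34 and Kdm2b) had differences between -0.53 and 0.32.

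**Figure D4:**
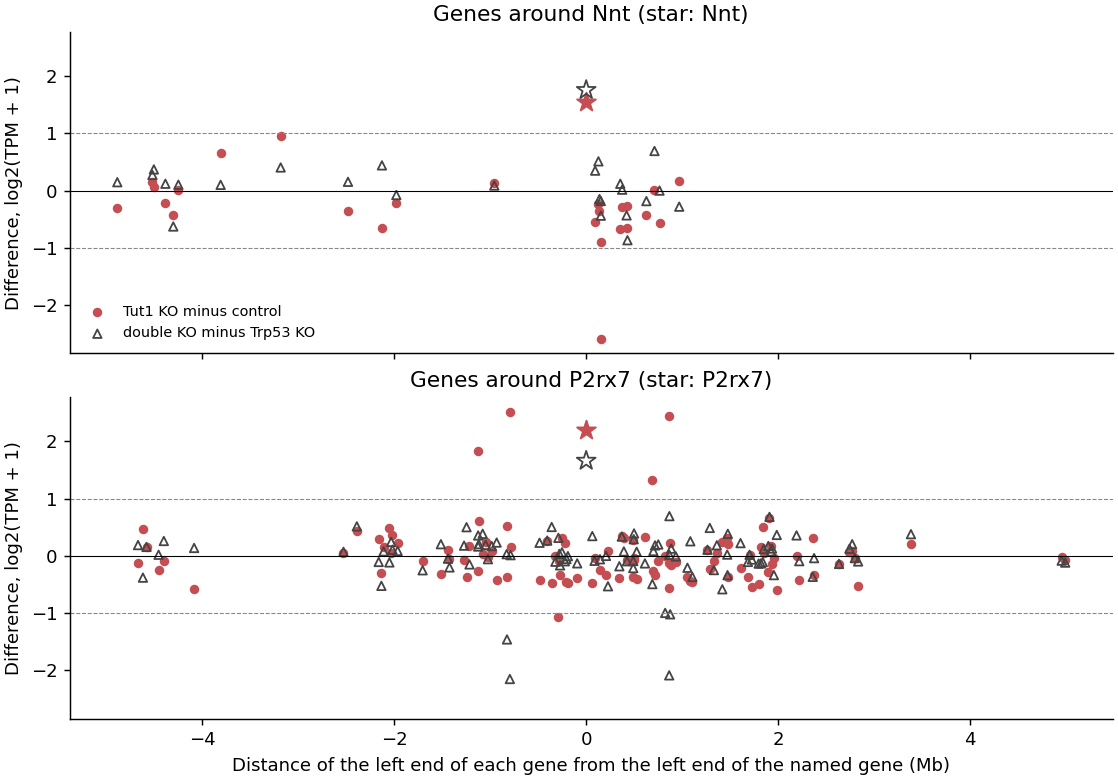
Log2(TPM + 1) differences of genes within 5 Mb of Nnt (top) and P2rx7 (bottom) are plotted against the distance of their left ends, with red circles for Tut1 KO minus control, open triangles for double KO minus Trp53 KO, stars for the member itself and dashed lines at the threshold of 1. No neighbour lay past 1 on the same side in both; Tmem267 beside Nnt was at -2.59 and -0.44.

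The 35 genes with a gap of 1 or more in either direction lay on 18 chromosomes. Chromosome 13 held Nnt and Elovl2, and chromosome 5 held P2rx7, Pds5a and a pseudogene. Neither member had another of the 35 within 5 Mb. Chromosome 1 held 5 of them, between positions 79702262 and 93510260, which are Wdfy1, Itm2c, Ube2f and both Septin2 IDs.

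Other genes of the receptor family of P2rx7 were low. P2rx7 had the highest TPM of the 7 P2X genes in each library, and made up 54.1% of their summed TPM in the control, 45.0% in the Trp53 KO, 89.6% in the Tut1 KO and 70.7% in the double KO. Of the other 6, only P2rx3 and P2rx4 reached 1 TPM in some library. Over all 15095 genes, 1.84% were higher and 2.76% lower by 1 or more in the Tut1 KO than in the control, and 1.83% and 1.91% when double KO and Trp53 KO were compared. Of the P2X genes other than P2rx7, none of the 2 measured was. P2rx3, a channel of sensory neurons, followed the Trp53 label with 1.95 and 1.97 TPM in Trp53 KO and double KO against 0.344 and 0.425 TPM in control and Tut1 KO. Among receptors for ADP, UTP and adenosine, 5 of the 10 found were measured at 1 TPM and none passed the threshold. The highest was the adenosine receptor gene Adora1, at 17.7 to 20.0 TPM.

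Genes that supply or remove extracellular ATP also differed little. Of 17 in the list, 10 reached 1 TPM and none passed the threshold in either comparison, with medians of -0.18 and -0.04 beside -0.09 and 0.04 over all genes. The ATP release channel Panx1 was at 10.7 to 15.0 TPM with its maximum in the control, and the connexin gene Gja1 at 40.5 to 47.6 TPM. In 2 of the 10 both libraries with the Tut1 KO label were above both others and in 3 below, beside 15.0% and 17.9% of all genes. Enpp2, which cleaves lysophospholipids and nucleotides, was at 13.6 and 14.4 TPM in control and Trp53 KO and 19.4 and 18.8 TPM in Tut1 KO and double KO, a gap of 0.36. Enpp3, a related ectoenzyme gene, was at 2.81 and 3.09 TPM and at 1.58 and 1.88 TPM, a gap of 0.41 in the opposite direction.

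Downstream of the receptor, 4 of 8 inflammasome genes reached 1 TPM. Nlrp3, the sensor itself, was at most at 0.0668 TPM, Pycard, its adaptor, at most at 0.0707 TPM, and the cytokine genes Il1a and Il1b were listed at 0 in all 4 libraries. Il18, another cytokine of the pathway, was at 47.2 to 59.1 TPM. Casp1, the protease of the inflammasome, was at 0.320, 0.554, 1.29 and 1.49 TPM, so the labels did not overlap but the gap was 0.56 at a level near 1 TPM. Casp1 and Il18 were the 2 of 4 with both libraries of the Tut1 KO label above both others, beside 15.0% of all genes, and none was below both. Casp1 met the minimum of 1 TPM only in the Tut1 KO and double KO libraries, so its place in this count is a description. Nek7, a kinase that binds NLRP3, was the 1 gene past the threshold, higher by 1.16 in double KO against Trp53 KO (19.0 and 7.99 TPM) but not in Tut1 KO against control (13.1 and 19.2 TPM, a difference of -0.52). This is 1 of 4 measured, beside 1.83% of all genes higher in that comparison.

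Markers of microglia, in which P2rx7 is best known, were near 0. Of 14 markers, 10 were at 0 in all 4 libraries, among them Aif1, Cx3cr1, Itgam, Tmem119, Trem2, C1qa and Spi1, and Csf1r and Ptprc were at most at 0.0175 TPM. None reached 1 TPM, and the 14 summed to 0.543, 0.906, 0.911 and 0.622 TPM. P2rx7 at 5.47 to 35.2 TPM was above the summed 14 markers in each library. Of 8 endothelial and mural markers, Acta2 alone reached 1 TPM, at 1.39 to 2.41 TPM, and Cdh5 was at 0. Of 6 meningeal fibroblast markers, Pdgfra alone did, at 27.4 to 39.5 TPM, a gene that the oligodendrocyte lineage list holds too, and Lum and Dcn were at 0.

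**Figure D5:**
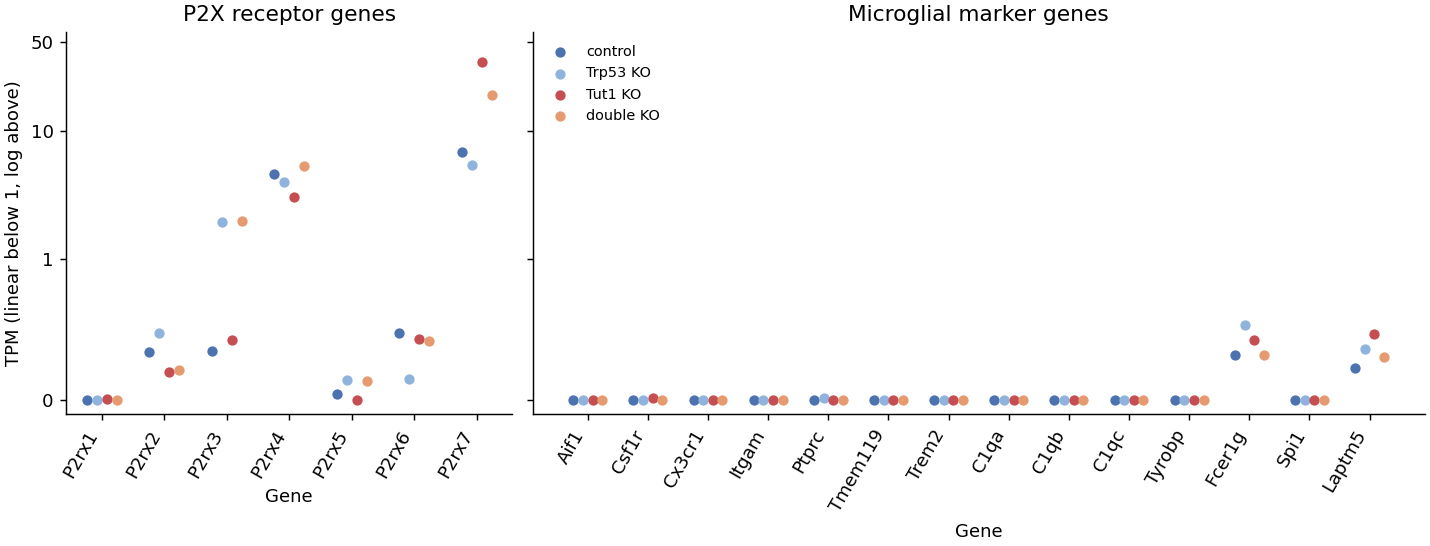
Points give the TPM of the 7 P2X receptor genes (left) and 14 microglial markers (right) in each library, on an axis that is linear below 1 TPM and logarithmic above. P2rx7 was above all other P2X genes in each library, at 5.47 to 35.2 TPM, and the microglial markers were below 1 TPM.

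The labelled cell type was present in its markers. All 12 neural stem cell markers reached 1 TPM, with a sum between 10628 TPM (Trp53 KO) and 12509 TPM (control), and Sox2 was at 292.8 to 385.0 TPM. None passed the threshold. Hes5, a target of Notch signalling, was the 1 marker of 12, beside 15.0% of all genes, with both libraries of the Tut1 KO label above both others, at 59.8 and 66.5 TPM in contrast to 39.6 and 36.8 TPM. Oligodendrocyte lineage genes were high in all libraries, with Olig1 at 894.9 to 1029 TPM, and none passed the threshold. In 2 of the 8 measured both libraries with the Tut1 KO label were above both others, beside 15.0% of all genes. Sox10, a transcription factor of this lineage, was at 6.16, 5.81, 9.81 and 7.61 TPM, and is 1 of these 2. Of 10 neuronal markers 6 reached 1 TPM. Of these, Snap25, a gene of synaptic vesicle release, alone passed the threshold, with a difference of -1.28 between Tut1 KO and control, where 2.76% of all genes were lower by 1 or more. For double KO and Trp53 KO its difference was -0.71. It was at 9.65, 10.5, 3.38 and 6.06 TPM, a gap of 0.59 in this direction, which 2 of the 6 and 17.9% of all genes shared at any size. The opposite direction held for 1 of the 6, Dcx, with a gap of 0.10, beside 15.0% of all genes. Map2 was the highest of the list, at 141.0 to 208.1 TPM. Of 8 astrocyte markers 5 reached 1 TPM and none passed the threshold. In 1 of the 5, S100b, both libraries with the Tut1 KO label were above both others, at 3.60, 2.38, 5.21 and 4.39 TPM, beside 15.0% of all genes, and none was below both. Slc1a3, a glutamate transporter gene, was at 251.8 to 346.8 TPM and Aldoc at 163.0 to 186.0 TPM. In the Tut1 comparisons, the one with control first, Slc1a3 differed by -0.08 and 0.46 and Aldh1l1 by -0.03 and -0.06. Gfap had its labels in the same order as S100b, at 0.135, 0.238, 0.966 and 0.688 TPM. It was below 1 TPM in each library, and so not among the 5. The part of cell makeup in the levels of Nnt and P2rx7 was not tested.

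Of 10 other genes that supply mitochondrial NADPH, all were measured and Mthfd2l alone passed the threshold, beside 1.83% of all genes higher and 1.91% lower in that comparison, at 28.9, 24.0, 24.0 and 50.3 TPM, by 1.04 in double KO minus Trp53 KO. The list medians were -0.25 and -0.02 in the Tut1 comparisons, the one with control first. Idh2, the isocitrate dehydrogenase of mitochondria, was at 139.5 to 196.2 TPM and below its control and Trp53 KO levels in both libraries with the Tut1 KO label, by 0.11 and 0.49. Such an order held for 2 of the 10, Idh2 and Mthfd1l, beside 17.9% of all genes, and the opposite order for none, beside 15.0%. The main Nnt ID made up 0.912%, 0.925%, 3.38% and 3.51% of the summed TPM of these 11 genes, and 1.56% in the control with both Nnt IDs summed. The main ID ranked 10th, 10th, 9th and 8th among them, so it remained a low transcript of this group.

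A further list held 12 genes for glutathione, thioredoxin and peroxide defence in mitochondria, not all of which use NADPH. Their medians were 0.09 and 0.01, and none of the 12 passed the threshold. In 4 of them, beside 15.0% of all genes, both libraries with the Tut1 KO label were above both others, the largest gap being that of Glrx5, a glutaredoxin, at 47.3 and 48.0 TPM against 42.7 and 43.0 TPM. In 1, the superoxide dismutase gene Sod2, they were below both, beside 17.9% of all genes. The peroxiredoxin gene Prdx3 was at 113.2 to 140.7 TPM and the thioredoxin gene Txn2 at 95.3 to 120.3 TPM. Of 10 genes for cytosolic NADPH none passed the threshold, with medians of -0.29 and -0.08, beside -0.09 and 0.04 over all genes. G6pdx, which starts the pentose phosphate pathway, was at 66.3 and 79.8 TPM in control and Trp53 KO and at 50.6 and 50.3 TPM in Tut1 KO and double KO. With Pgd and Taldo1, it was 1 of 3 of these 10 with the Tut1 KO label below both others, beside 17.9% of all genes. None was above both, beside 15.0%.

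Of the other genes known to vary between mouse strains, none passed the threshold in the direction of the members, beside 1.84% and 1.83% of all genes higher in the single comparisons. Lower by 1 or more were 1 of 15 in Tut1 KO against control (Wdfy1) and 2 of 15 in double KO against Trp53 KO (Wdfy1 and Cyfip2), beside 2.76% and 1.91%. The list of 30 was drawn from general knowledge and its alleles differ in kind, with some altering protein and some expression. In all, 15 reached 1 TPM and 7 were at 0 in all libraries. Of the 15, both libraries with the Tut1 KO label were above both others in 2 (Glo1 and Pttg1) and below both in 5 (Wdfy1, Gabra2, Mx2, Entpd4 and Fv1), beside 15.0% and 17.9% of all genes. With this lower minimum, 27 of 15095 genes (0.179%) were higher in both libraries with the Tut1 KO label by a gap of 1 or more and 33 (0.219%) lower. Wdfy1, an endosomal protein gene, was the 1 list gene past it, in the direction opposite to Nnt and P2rx7. It was at 11.8, 18.9, 2.61 and 3.07 TPM, a gap of 1.65. Cyfip2, an actin regulator with a coding variant in a C57BL/6 substrain, was lower by 1.58 in double KO against Trp53 KO (3.34 and 12.01 TPM) and by 0.34 in Tut1 KO against control (13.2 and 17.0 TPM). Glo1, Alad and Pttg1 had differences between -0.22 and 0.45 in both comparisons. The class I genes H2-K1 and H2-D1, which are among the most polymorphic, followed the Trp53 label, at 88.2 and 41.2 TPM in Trp53 KO against 55.9 and 25.0 TPM in control, and at 69.5 and 34.6 TPM in double KO against 48.9 and 23.2 TPM in Tut1 KO. They differed by at most 0.34 in either Tut1 comparison. The list medians were -0.19 and -0.13 in these comparisons.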

How the data were processed

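RNA from 4 cultures was sequenced, 1 library per group. The authors deposited 1 table of gene-level TPM for 55487 Ensembl IDs, and the submitters' processing notes name Trimmomatic, HISAT2, StringTie and mm10, with no versions or annotation release. The labels describe an Illumina stranded mRNA kit, whereas the series text describes Nanopore reads, so the platform rests on the labels. TPM keeps no depth. The depth of each library is unknown, and no counting interval was given. TPM summed to 999874 to 999892 per library, and 23070 to 23317 IDs were above 0.

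A pseudocount of 1 was added before taking log2, so that changes of low genes are understated, and differences were called at 1. Genes needed 10 TPM in some library, or 1 TPM for lists and neighbourhoods. No test was run, since each group held 1 library. Coordinates came from GENCODE M21 (GRCm38), in which 99.5% of IDs were found, and promoters from RefSeq. Named were the members, Tut1, Trp53, list members, the 5 nearest profiles, the 5 neighbours on each side and the 10 largest gaps in each direction; predicted genes and pseudogenes were counted only, and Xist, Ddx3y, Eif2s3y, Mir8115 and genes near the threshold were named after their values were seen. The members and all lists were chosen with earlier results of these data known. Alternatives were the pseudocount, the minimum, 4 rescalings and the window. Some list members are not reported here. Code was tested on simulated libraries. Python 3.11.15, numpy 2.4.6, pandas 2.3.3 and matplotlib 3.10.9 were used.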

Additional observations from a re-analysis of the deposited data

Results flagged for a closer look

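Among the genes named with values here, 4 had Tut1 KO minus control and double KO minus Trp53 KO differences past 1 in opposite directions. The first minus the second was 15.2 on the log2 scale for Xist, -9.41 for Ddx3y, -11.1 for Eif2s3y and 4.66 for Pheta1, a gene near P2rx7 that was picked with its values known. With 1 library per group the difference was not tested.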

How the results depend on the processing

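Of 74 values recomputed under alternatives for 12 results, 65 kept their call. These moved by less than 0.5 (log2) or by at most 1.5 times (counts and shares). None of the 74 that was called changed sign. P2rx7 stayed past the threshold under each alternative tried, between 1.76 and 2.34 for Tut1 KO minus control and between 1.22 and 1.81 for double KO minus Trp53 KO. The main Nnt ID did too under the 6 planned ones. With both Nnt IDs summed, which was chosen after the data were seen, Tut1 KO minus control was 0.84, past the threshold no longer because the second ID adds to the control alone, and Trp53 KO minus control was -0.56. The 14 higher and 21 lower genes became 27 and 33 with a minimum of 1 TPM or with none, and 10 and 14 with a pseudocount of 5. Restricting them to autosomal protein-coding genes that share no exon, also chosen after the data were seen, left 8 and 11, and neither Nnt nor P2rx7 meets that restriction. A window of 1 Mb around P2rx7 gave 6.82% of genes with both libraries of the Tut1 KO label above both others. TPM keeps no depth, so the precision of levels near 1 TPM is unknown. No paired analysis was possible because each group has 1 library and the labels carry no replicate numbers.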

Other observations

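Within 5 Mb of P2rx7, 7 of 109 genes passed the threshold in at least 1 Tut1 comparison. In Tut1 KO minus control 4 were higher and 1 lower, beside 1.84% and 2.76% of all genes, and in double KO minus Trp53 KO none was higher and 4 were lower, beside 1.83% and 1.91%. Of the 7, 2 are named here, picked with their values known. Pheta1, an endocytic adaptor gene 0.795 Mb from P2rx7, was at 18.6 and 13.7 TPM in Tut1 KO and Trp53 KO, and at 2.44 and 2.31 TPM in control and double KO. Its libraries thus split in the same way as those of Xist, with differences of 2.51 and -2.15 in the Tut1 comparisons, and P2rx7 did not share it. Vps29, a retromer subunit gene 0.290 Mb away, was at 126.5 TPM in the control and 60.1 to 87.2 TPM in the other 3 libraries. The other 5 were below 5 TPM in each library. In most of them Tut1 KO and Trp53 KO were above control and double KO, as for Pheta1.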
